A study of Mus musculus with 3 samples.

Results

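The macrophage scavenger receptors Mrc1, Cd163, Msr1, Marco, Stab1 and Folr2 and the chemokine Pf4 were described in mouse non-small cell lung cancer, as 7 of the 32285 genes in the deposited matrices. They were listed with earlier results of these data known, and their UMIs (unique molecular identifiers, the tags by which captured transcripts are counted) were read in barcodes with at least 500 UMIs, at least 200 genes and at most 20% mitochondrial UMIs. Such barcodes are called cells here. The 3 libraries, named AI-Exo, PD-L1 and PBS in the labels, held 10457, 9697 and 9359 cells. The series title speaks of exosomes that inhibit autophagy, but the labels do not spell out AI-Exo or PD-L1 and give no dose, time, strain, tumour line or number of animals. Each group had 1 library of one tissue, so no difference between groups could be tested, and all intervals below are 95% intervals that cover counting error only.

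Scavenger receptors are surface proteins that bind modified, damaged or foreign material and carry it into the cell for degradation. Mrc1, the mannose receptor CD206, binds sugar-ended glycoproteins and collagen. Cd163 takes up haemoglobin bound to haptoglobin. Msr1, scavenger receptor A, and Marco, its collagenous relative on alveolar macrophages, bind modified lipoproteins, bacteria and particles. Stab1, stabilin-1, clears secreted matrix proteins such as SPARC, and Folr2 is the folate receptor beta of resident tissue macrophages. Pf4 (CXCL4) is stored in platelet granules and is also made by macrophages. In lung, alveolar macrophages live on the air side of the epithelium, whereas interstitial and tumour macrophages lie in the tissue.

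Cells were assigned to types by marker lists that contained none of the 7 genes. A marker counted as on when its share of a cell's UMIs reached 10% of the share that the top 0.5% of all cells exceeded, and a type needed at least 50% of its list. Of the 9 macrophage markers, among them C1qa, C1qc, Apoe and Trem2, 5 were needed, and of the 12 alveolar macrophage markers 6. Cells with at least 2 Arg1 UMIs and at least 2 macrophage markers on that would otherwise be macrophages, classical monocytes or ungated were added as Arg1-positive macrophages. Arg1 is the arginase of alternatively activated macrophages. These limits were set after the data had been seen, and a gate cut from a per-cell score is a range of cells, not a type. The macrophage gate held 197 cells in AI-Exo, 133 in PD-L1 and 286 in PBS. Of these, 69, 33 and 143 were Arg1-positive. The alveolar macrophage gate held 676, 480 and 431 cells. Of the macrophages found by markers alone, 37, 16 and 24 stood exactly at the limit of 5 markers, and 30, 22 and 20 ungated cells had 1 marker fewer. Median depth in the macrophage gate was 14203 UMIs in AI-Exo, 12630 in PD-L1 and 14315 in PBS. Libraries shared 23 to 33 cell barcodes, at most 0.32% of a library.

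The receptors divided between the macrophage gates. Levels are CPM, the UMIs of a gene per 1000000 UMIs summed over the cells of a gate in one library. The kit reads transcript 3′ ends, so a level is not divided by gene length. Mrc1 was high in both gates, at 748, 851 and 968 CPM in alveolar macrophages of AI-Exo, PD-L1 and PBS and at 205, 302 and 884 CPM in macrophages. Marco belonged to alveolar macrophages, which held 83.2% of its UMIs in AI-Exo, 87.8% in PD-L1 and 82.3% in PBS. Cd163, Stab1 and Folr2 stayed at or below 4.52 CPM in alveolar macrophages of every library. The macrophage gate held 37.0%, 37.8% and 63.2% of all Stab1 UMIs in AI-Exo, PD-L1 and PBS, and 53.1%, 57.6% and 72.7% of all Pf4 UMIs. Msr1 was the one receptor above 40 CPM in classical monocytes, at 49.8 CPM in AI-Exo, 55.7 in PD-L1 and 72.8 in PBS. Stab1 was also present in the few endothelial cells, at 47.7, 76.6 and 70.5 CPM from 9, 25 and 9 UMIs. In B cells, read as background, the highest level was Pf4 at 25.5 CPM in PBS, against 3.33 CPM in AI-Exo and 1.13 CPM in PD-L1. Pf4 in T cells was 8.56 CPM in AI-Exo, 9.30 in PD-L1 and 66.2 in PBS. Immature T-lineage cells had Pf4 at 4.61 CPM in PD-L1 and 194.0 in PBS, and Mrc1 at 24.9 and 100.8 CPM. Lymphocyte gates thus also had more Pf4 in PBS, whereas neutrophils had 19.5, 6.25 and 12.7 CPM. The source of these UMIs was not tested. Cells with markers of more than one lineage were left out of all gates. They held 12.3% to 21.3% of the Pf4 UMIs and 6.89% to 9.75% of the Mrc1 UMIs of a library. For Cd163 their share was 6.35% in AI-Exo and 23.0% in PBS. For Folr2 it was 28.9% in AI-Exo, 11.9% in PD-L1 and 17.6% in PBS.

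**Figure D1:**
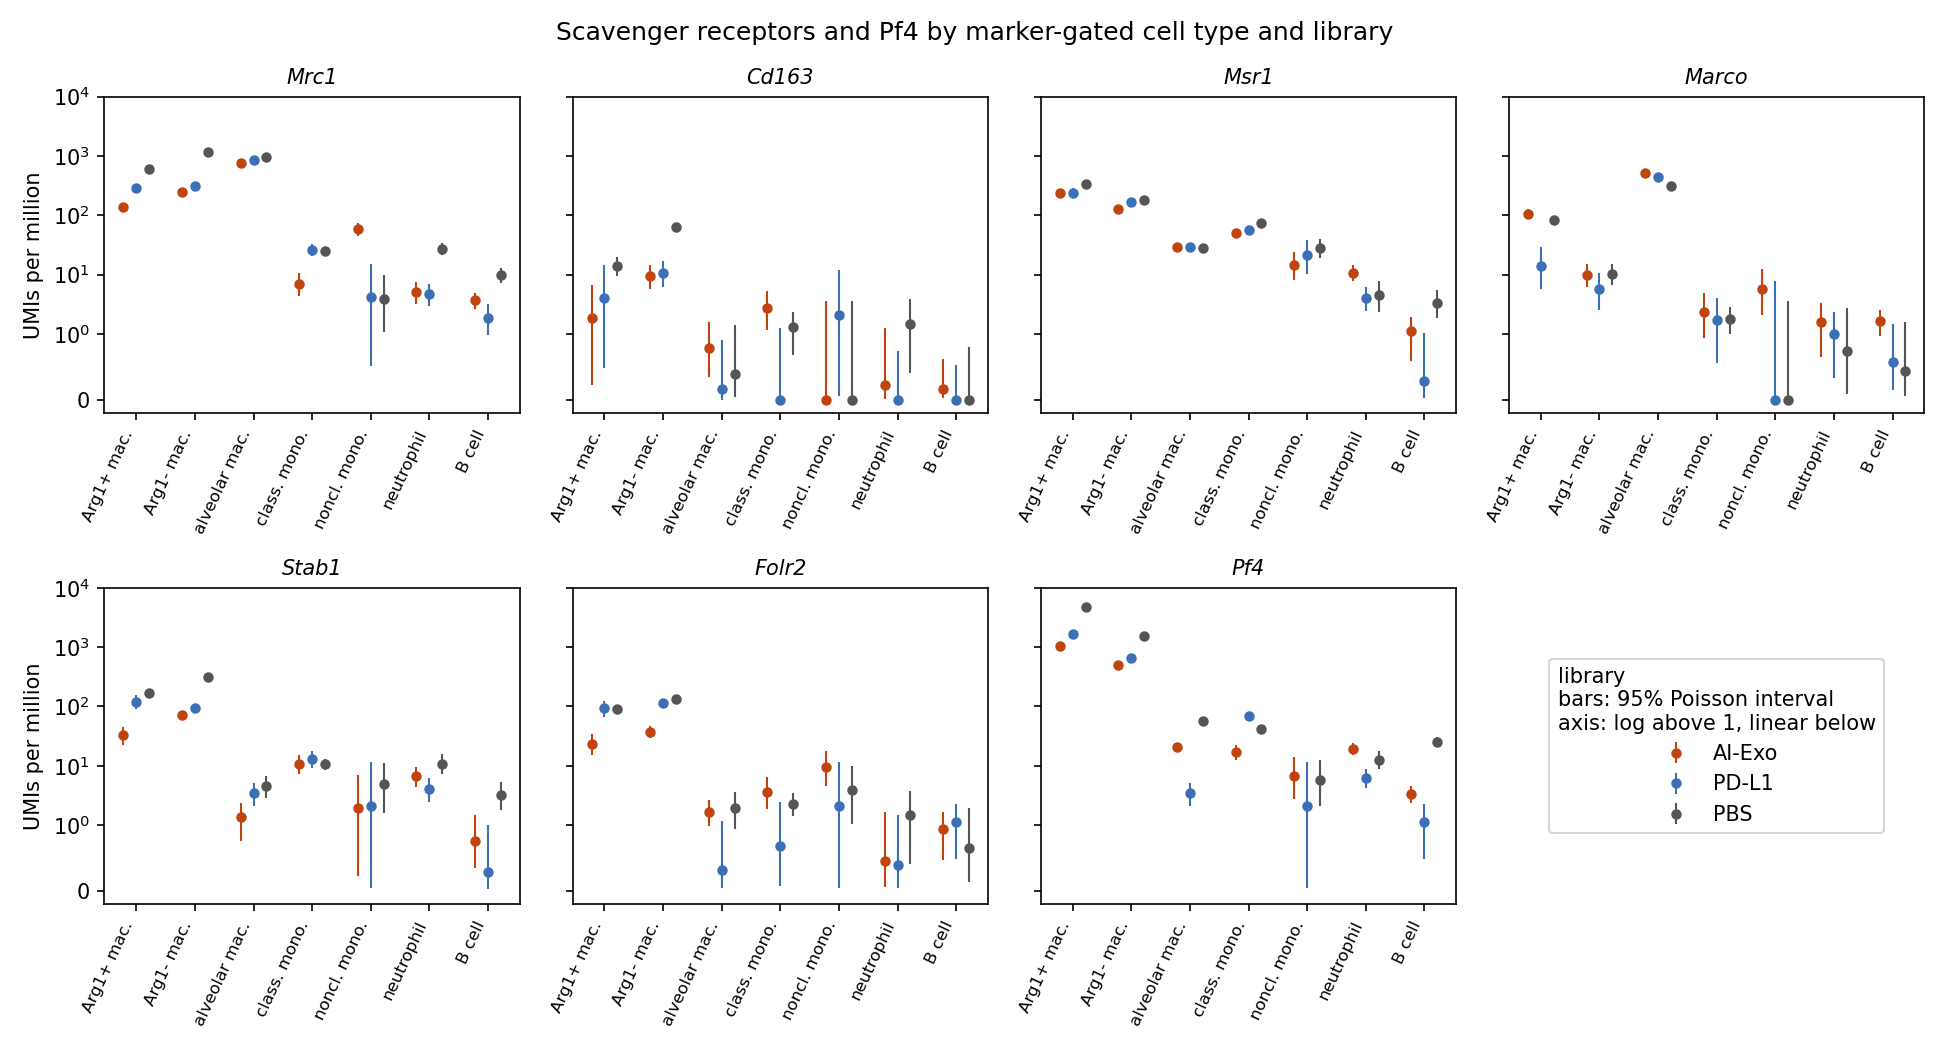
CPM of the 7 genes (y axis, logarithmic above 1 and linear below) in marker-gated cell types (x axis) of the AI-Exo, PD-L1 and PBS libraries, with 95% Poisson intervals as bars. Marco stands at 517, 434 and 314 CPM in alveolar macrophages, and Pf4 at 1046, 1691 and 4650 CPM in Arg1-positive macrophages.

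In macrophages most of the 7 genes were lower in both treated libraries than in PBS. A gene was called lower or higher when CPM + 10 differed by at least 1.5 times between 2 libraries. In AI-Exo over PBS, 6 of 7 genes were lower and 0 higher, where 2.05% of all 17887 genes with a UMI were lower and 2.04% higher. The gene that was not called was Marco. In PD-L1 over PBS, 5 of 7 were lower and 0 higher, where 1.45% of 17612 genes were lower and 1.89% higher. Folr2 and Msr1 were not called. The median log2 ratio of the 7 genes was -1.54 in AI-Exo over PBS and -1.36 in PD-L1 over PBS, beside -0.03 over all genes in both. Since the genes were chosen from these libraries, these counts describe the choice, and both comparisons share the PBS library.

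Mrc1 in macrophages was 205 CPM (190 to 222) in AI-Exo, 302 (279 to 326) in PD-L1 and 884 (857 to 910) in PBS. That is 4.31-fold lower in AI-Exo than in PBS (ratio 0.232, interval 0.213 to 0.252) and 2.93-fold lower in PD-L1 than in PBS (ratio 0.342, 0.314 to 0.371). A Mrc1 UMI was found in 56.3% of macrophages in AI-Exo, 71.4% in PD-L1 and 73.8% in PBS, and in 0.80%, 0.709% and 2.05% of B cells, whose median depth was 3909, 3721 and 3371 UMIs. With each cell thinned to 1000 UMIs the macrophage shares were 16.5% in AI-Exo, 21.8% in PD-L1 and 36.7% in PBS. The median macrophage had 0.70 Mrc1 UMIs per 10000 in AI-Exo, 1.46 in PD-L1 and 3.94 in PBS.

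Stab1 in macrophages was 57.2 CPM (49.1 to 66.2) in AI-Exo, 99.2 (86.2 to 113.6) in PD-L1 and 243 (229 to 257) in PBS. It was 4.25-fold lower in AI-Exo than in PBS and 2.45-fold lower in PD-L1 than in PBS. It was also 1.73-fold lower in AI-Exo than in PD-L1 (ratio 0.576, 0.469 to 0.708). After thinning, 7.73% of macrophages in AI-Exo, 6.02% in PD-L1 and 15% in PBS had a Stab1 UMI, so the order of AI-Exo and PD-L1 by share went against their order by CPM, and the intervals of the shares overlapped.

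Cd163 had few UMIs. It had 21 UMIs in AI-Exo macrophages, 19 in PD-L1 and 189 in PBS, which is 6.78 CPM (4.2 to 10.4), 9.06 (5.46 to 14.1) and 38.8 (33.5 to 44.8). The fold was 5.72 lower in AI-Exo than in PBS and 4.28 lower in PD-L1 than in PBS. It lay in few cells, since 6.09%, 8.27% and 16.4% of macrophages had a UMI, and the richest 10% of cells held all of its UMIs in AI-Exo and in PD-L1 and 90.5% in PBS.

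In the macrophage gate Folr2 was lower in AI-Exo than in the other 2 libraries. It was 32.3 CPM (26.3 to 39.3) in AI-Exo macrophages, 109 (95.1 to 123.8) in PD-L1 and 112 (103 to 122) in PBS. AI-Exo was 3.47-fold lower than PBS (ratio 0.288, 0.230 to 0.357) and 3.37-fold lower than PD-L1 (ratio 0.297, 0.232 to 0.377). For PD-L1 over PBS the ratio was 0.970 with an interval of 0.827 to 1.13. A Folr2 UMI was seen in 19.8% of macrophages in AI-Exo, 24.1% in PD-L1 and 40.9% in PBS. These shares were not thinned, and median depth was 12630 UMIs in PD-L1 and 14315 in PBS. The part of depth in the shares was not tested. The richest 10% of cells held 78.9% of the Folr2 UMIs in PD-L1 against 54.9% in PBS. The difference between AI-Exo and PD-L1 was smaller in a cluster led by C1qa. Folr2 was 60.0 CPM there in AI-Exo, 88.7 in PD-L1 and 138.5 in PBS, and PD-L1 was then below PBS. The macrophage gate held 100 Folr2 UMIs in AI-Exo and 228 in PD-L1. Cells left out for markers of more than one lineage held 81 and 38. All cells together held 280 in AI-Exo and 318 in PD-L1. The part of the left-out cells in the Folr2 difference was not tested.

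Msr1 lay near the 1.5-fold size in both comparisons with PBS. It was 164 CPM (150 to 179) in AI-Exo, 182 (164 to 201) in PD-L1 and 262 (248 to 277) in PBS. The fold was 1.60 lower in AI-Exo than in PBS, past the 1.5-fold size, and 1.44 lower in PD-L1 than in PBS, short of it. The AI-Exo call was lost with edgeR's TMM scaling (log2 ratio -0.56), with clusters in place of the gate (-0.48) and with each cell weighing the same (-0.52). These were the values nearest to the limit on either side in macrophages over PBS. AI-Exo and PD-L1 had overlapping intervals.

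Marco in macrophages was 43.0 CPM (36.0 to 50.9) in AI-Exo, 7.63 (4.36 to 12.4) in PD-L1 and 46.2 (40.4 to 52.6) in PBS. It came from few cells, as 7.61% of macrophages in AI-Exo, 3.01% in PD-L1 and 6.29% in PBS had a UMI. Arg1-positive macrophages held 113 of its 133 UMIs in AI-Exo, 7 of 16 in PD-L1 and 200 of 225 in PBS, at 105, 14.1 and 81.8 CPM, against 9.92, 5.63 and 10.3 CPM in Arg1-negative macrophages. The 12 alveolar macrophage markers summed to 1116 CPM in AI-Exo macrophages, 627 in PD-L1 and 435 in PBS. Their part in the Marco values was not tested.

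Pf4 was the most abundant of the 7 genes in macrophages and gave the largest difference in CPM. It was 689 CPM (660 to 719) in AI-Exo, 902 (862 to 944) in PD-L1 and 3103 (3054 to 3153) in PBS. It was 4.50-fold lower in AI-Exo than in PBS (ratio 0.222, 0.212 to 0.232) and 3.44-fold lower in PD-L1 than in PBS (ratio 0.291, 0.277 to 0.305). A UMI was seen in 66.5%, 66.2% and 84.6% of macrophages, and after thinning to 1000 UMIs in 29.4%, 40.6% and 55.9%. The median macrophage had 1.59 Pf4 UMIs per 10000 in AI-Exo, 2.68 in PD-L1 and 14.44 in PBS.

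**Figure D2:**
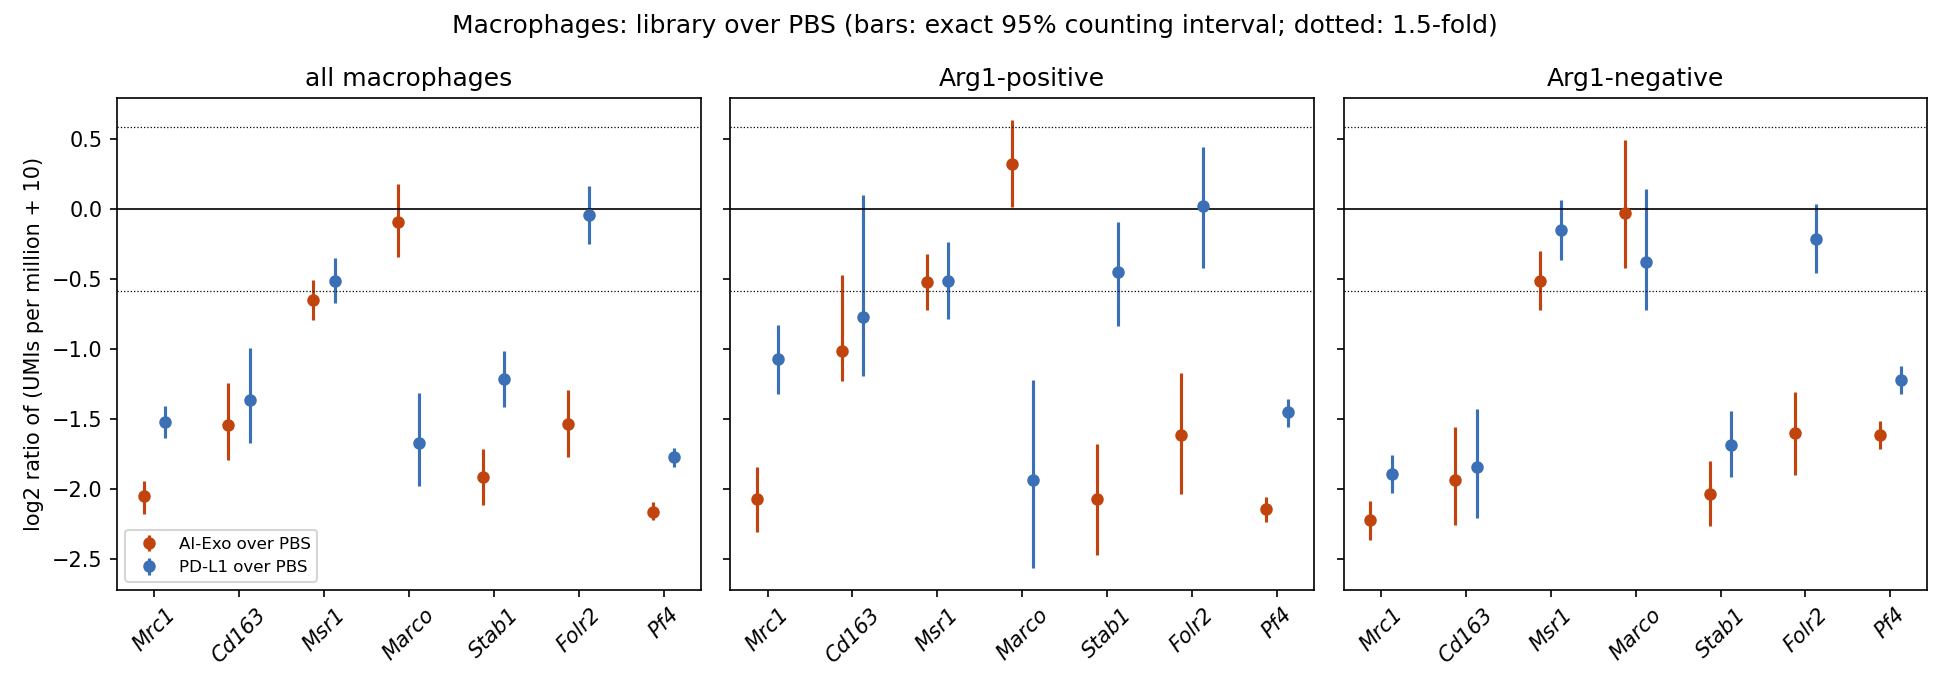
Log2 ratio of CPM + 10 for the 7 genes in all, Arg1-positive and Arg1-negative macrophages, AI-Exo over PBS and PD-L1 over PBS, with exact 95% counting intervals. Mrc1 and Pf4 lie below the lower dotted 1.5-fold line in all 3 panels, and Folr2 does so in AI-Exo over PBS.

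The 5′ flanks of 4 genes are shown. Mrc1, Stab1 and Pf4 were lower in both treated libraries, and Marco was lower in PD-L1 but not in AI-Exo. Cd163 was also lower in both, but its flank is not shown and held none of the letters marked below. The 4 flanks are therefore a choice and not all genes of that pattern. Each is the RefSeq strand of the gene in build GRCm38.p6, from 250 bases before to 50 bases after the annotated start, read 5′ to 3′. Capitals mark GAGGAA or its reverse TTCCTC, a core of sites of the macrophage factor PU.1, and TGCTGA or its reverse TCAGCA, a half-site of MAF factors. The Mrc1 flank lies at chr2:14229164-14229463 on the + strand, that of Stab1 at chr14:31168592-31168891 on the - strand, that of Pf4 at chr5:90772185-90772484 on the + strand and that of Marco at chr1:120504975-120505274 on the - strand.
Mrc1: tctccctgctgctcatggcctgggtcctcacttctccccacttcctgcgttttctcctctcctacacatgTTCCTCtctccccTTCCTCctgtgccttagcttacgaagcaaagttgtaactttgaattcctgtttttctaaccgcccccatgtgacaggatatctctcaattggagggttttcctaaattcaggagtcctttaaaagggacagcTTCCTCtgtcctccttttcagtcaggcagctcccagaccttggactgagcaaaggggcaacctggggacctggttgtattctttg
Stab1: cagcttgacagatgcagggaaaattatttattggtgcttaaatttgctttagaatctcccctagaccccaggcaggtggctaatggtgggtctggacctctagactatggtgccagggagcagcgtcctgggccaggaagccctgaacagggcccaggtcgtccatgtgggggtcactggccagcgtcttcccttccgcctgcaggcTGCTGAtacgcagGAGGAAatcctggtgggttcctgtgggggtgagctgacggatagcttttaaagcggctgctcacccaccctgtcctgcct
Pf4: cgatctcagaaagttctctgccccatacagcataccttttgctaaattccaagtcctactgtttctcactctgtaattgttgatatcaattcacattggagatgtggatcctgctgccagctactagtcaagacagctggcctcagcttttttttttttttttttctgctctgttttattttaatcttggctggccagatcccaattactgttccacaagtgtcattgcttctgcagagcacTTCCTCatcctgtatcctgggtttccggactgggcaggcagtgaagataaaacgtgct
Marco: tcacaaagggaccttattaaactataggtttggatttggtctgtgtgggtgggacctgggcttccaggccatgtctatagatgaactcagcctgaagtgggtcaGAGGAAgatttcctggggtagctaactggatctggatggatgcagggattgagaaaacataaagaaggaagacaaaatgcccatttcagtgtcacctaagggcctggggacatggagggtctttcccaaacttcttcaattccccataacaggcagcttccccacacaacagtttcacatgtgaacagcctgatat
RefSeq entries matched 6 of the 7 genes, all but Msr1. The PU.1 letters occurred 3 times in the Mrc1 flank, once each in those of Stab1, Pf4 and Marco, and in neither of the Folr2 entries nor that of Cd163. They occurred in 28.3% of all 32851 flanks of the same length. The MAF letters were found in the Stab1 flank, at position -43 from the start, and in both Folr2 entries, against 19.5% of all flanks. The motifs do not overlap in the Stab1 flank, where the PU.1 letters begin at position -30. A match of letters is a description of the sequence and shows no binding.

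Most of the 7 genes were lower in the treated libraries in both kinds of macrophage. In Arg1-negative macrophages Mrc1 was 242 CPM in AI-Exo, 308 in PD-L1 and 1166 in PBS, and Stab1 was 70.4, 92.6 and 318 CPM. Cd163 was 9.42, 10.6 and 64.0 CPM there. In Arg1-positive macrophages Mrc1 was 136, 283 and 604 CPM, and Stab1 was 32.4, 120.5 and 169 CPM. Pf4 was higher in Arg1-positive than in Arg1-negative macrophages of each library, at 1046 against 498 CPM in AI-Exo, 1691 against 657 in PD-L1 and 4650 against 1542 in PBS. Mrc1, Cd163, Stab1 and Folr2 were lower in Arg1-positive macrophages of AI-Exo and PBS, with overlapping intervals for Cd163 and Folr2 in AI-Exo. In PD-L1 the intervals of these 4 genes overlapped between the kinds. Of the 7 genes, 5 were lower in AI-Exo over PBS in each kind, where 4.11% of genes with a UMI were lower in Arg1-positive and 4.32% in Arg1-negative cells. In PD-L1 over PBS 4 were lower in each kind, with 4.21% and 3.25% of genes. None of the 7 was higher over PBS in either kind, where 2.73% and 3.48% of genes were higher in AI-Exo and 5.49% and 2.67% in PD-L1. In AI-Exo over PD-L1, 4 were lower (Mrc1, Stab1, Folr2 and Pf4) and 1 higher (Marco) in Arg1-positive cells, where 10.3% and 5.60% of genes were. In Arg1-negative cells 1 was lower (Folr2) and 0 higher, where 2.88% and 2.64% were. Both kinds lost Msr1 from the calls in AI-Exo over PBS. In Arg1-positive PD-L1 macrophages, only 33 cells, Stab1 missed the size at a ratio of 0.714 (0.535 to 0.937), and the Cd163 ratio rested on 2 UMIs with an interval of 0.0336 to 1.13.

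Clusters were also computed without the 7 genes, and 2 of them were named macrophage from the marker lists. In both, Mrc1 and Pf4 were lower in AI-Exo and PD-L1 than in PBS. One of the 46 clusters was led by C1qa, C1qc and C1qb and had 120 cells in AI-Exo, 147 in PD-L1 and 215 in PBS. In it Mrc1 was 230, 335 and 1143 CPM and Pf4 was 594, 804 and 2151 CPM. A second macrophage cluster was led by Arg1 and Mmp12, with 154, 99 and 231 cells. In it Mrc1 was 126, 171 and 296 CPM, and Pf4 was 653, 548 and 2862 CPM. An unnamed cluster led by Adgre4 and Il1r2, with 25, 8 and 7 macrophage-gated cells, had Pf4 at 143.5, 79.3 and 109.7 CPM.

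The 7 genes were also read cell by cell. With macrophages thinned to 5000 UMIs, which left out 21, 11 and 23 cells, the median macrophage had UMIs of 2 of the 7 genes in AI-Exo, 2 in PD-L1 and 3 in PBS. None of the 7 was seen in 14.2% of AI-Exo, 9.84% of PD-L1 and 4.94% of PBS macrophages. A Pf4 UMI was seen in 18 of 19 AI-Exo macrophages with Folr2, 19 of 22 in PD-L1 and 66 of 68 in PBS. Without Folr2 the shares were 49.0%, 52.0% and 74.9%. Cd163 in PBS followed Stab1, with 20 of 110 Stab1-positive and 3 of 153 Stab1-negative macrophages.

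**Figure D3:**
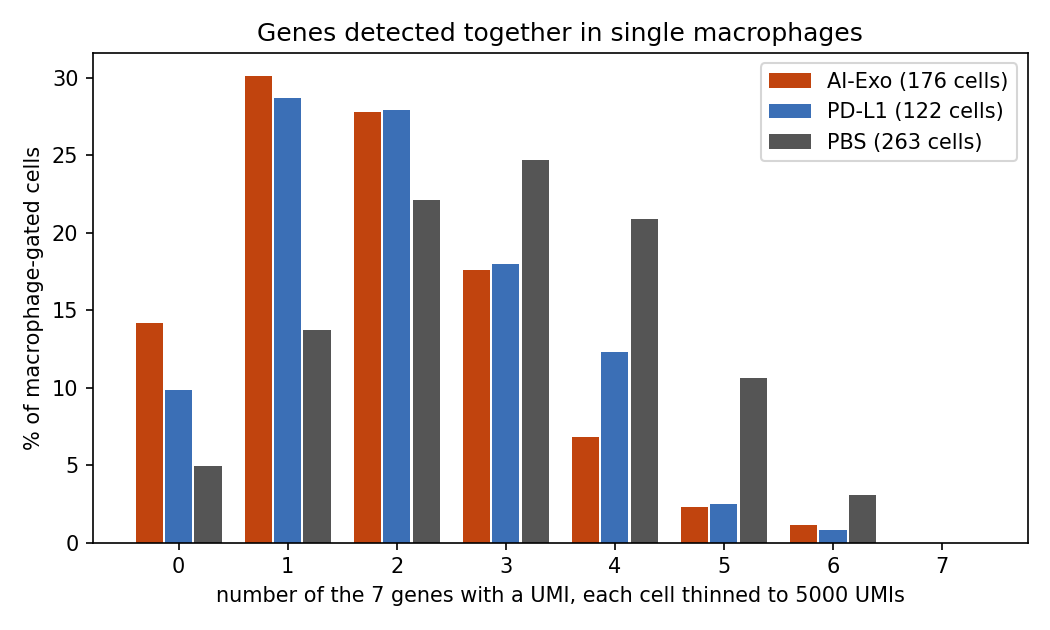
Share of macrophage-gated cells (y axis, %) by how many of the 7 genes had a UMI (x axis) after thinning each cell to 5000 UMIs, in 176 AI-Exo, 122 PD-L1 and 263 PBS cells. No gene was seen in 14.2%, 9.84% and 4.94% of cells, and 4 genes were seen in 6.82%, 12.3% and 20.9%.

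Pf4 is a platelet transcript as well, so platelet markers were read in the same cells. Gp1ba and Gp5, parts of the platelet von Willebrand factor receptor, had 0 UMIs in macrophages of every library, and Gp9, Gp1bb and the integrin Itga2b had at most 2 UMIs each. The 11 platelet markers summed to 93.7 CPM in AI-Exo, 23.4 in PD-L1 and 272.3 in PBS. Ppbp, a chemokine of the same family, was 81.4, 4.29 and 255 CPM, most of the sum in AI-Exo and PBS but not in PD-L1. Ppbp was 229, 2.01 and 487 CPM in Arg1-positive macrophages, against 2.48, 5.0 and 21.5 CPM in Arg1-negative ones. It had 252 UMIs in AI-Exo, 9 in PD-L1 and 1243 in PBS. Gng11 was 8.72 CPM in AI-Exo, 8.11 in PD-L1 and 6.98 in PBS. Pf4 was also found outside macrophages. The platelet or megakaryocyte gate held 3 cells in AI-Exo, 2 in PD-L1 and 0 in PBS, with 72, 9 and 0 Pf4 UMIs. The erythroid gate held 17, 21 and 8 cells, with 0, 133 and 9 Pf4 UMIs.

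**Figure D4:**
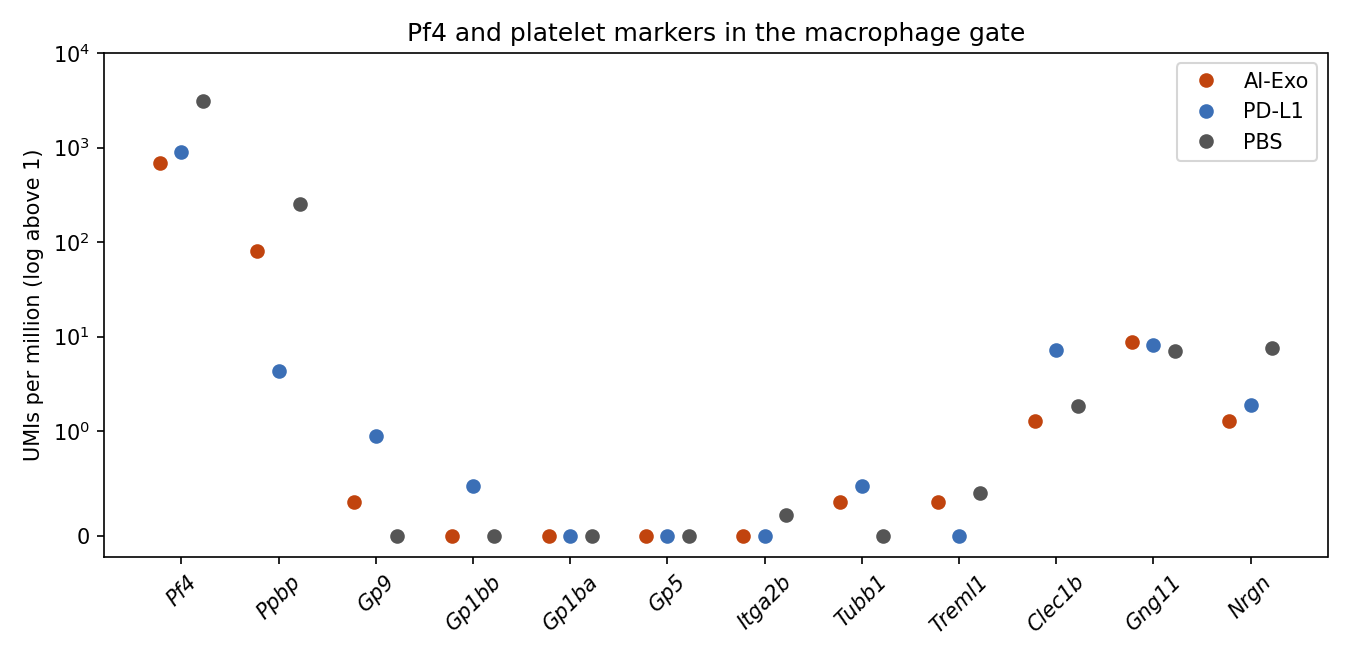
CPM of Pf4 and the 11 platelet markers (y axis, logarithmic above 1) in the macrophage gate of the 3 libraries. Pf4 is at 689, 902 and 3103 CPM, while Gp1ba and Gp5 are at 0 in all 3.

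Other genes of the same functions were read as lists. Of 27 other scavenger and endocytic receptors, 11 reached 20 CPM in macrophages. In AI-Exo over PBS 3 were lower and 2 higher with a median log2 ratio of 0.06, and in PD-L1 over PBS 2 were lower and 1 higher with a median of 0.11. Among all genes that reached 20 CPM in either library of the comparison, 4.19% were lower and 4.88% higher in AI-Exo over PBS, and 3.1% were lower and 4.14% higher in PD-L1 over PBS. The same shares stand beside the counts of the lists that follow. Clec10a, a lectin for galactose-type sugars, was 14.9 CPM in AI-Exo, 28.6 in PD-L1 and 74.1 in PBS. The hyaluronan receptor Lyve1 was 9.04, 8.58 and 21.8 CPM. Cxcl16, which binds oxidised lipoprotein and attracts T cells, was higher at 320, 325 and 158 CPM, and so was the oxidised lipoprotein receptor Olr1 in AI-Exo, at 141 CPM against 69.0 in PBS.

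Haem handling lies downstream of Cd163. Hmox1, the enzyme that opens haem, was 995 CPM in AI-Exo macrophages, 605 in PD-L1 and 1837 in PBS. The ferritin chains Fth1 and Ftl1 had log2 ratios of 0.19 and 0.30 in AI-Exo over PBS. Of 11 genes of this list in AI-Exo over PBS 2 were lower and 0 higher, and of 12 in PD-L1 over PBS 3 were lower and 0 higher, with medians of -0.07 and -0.13. Of 10 genes for clearance of dying cells, 1 was lower and 2 higher in each treated library over PBS. Gas6, the bridge between dying cells and Axl or Mertk, was 16.2, 48.2 and 95.5 CPM, and its receptor Axl was 63.3, 81.1 and 34.1 CPM.

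Among 21 measured regulators of macrophage identity, the transcription factor Maf was lower in both. It was 209 CPM in AI-Exo, 342 in PD-L1 and 557 in PBS. No other regulator was lower by the 1.5-fold size over PBS, and Bhlhe40, an activation factor, was higher in AI-Exo at 262 CPM, against 139 in PD-L1 and 152 in PBS. Of the Pf4 list, the CXCR3 ligands Cxcl9 and Cxcl10 were higher in both treated libraries, with Cxcl10 at 1323 CPM in AI-Exo, 1094 in PD-L1 and 512 in PBS. Ppbp and the neutrophil attractant Cxcl3 were lower in both, with Cxcl3 at 425, 59.1 and 839 CPM. Arg1 itself was 802, 269 and 1264 CPM. Lists and genes were chosen with earlier results known, so their counts describe and do not test.

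Neutrophil RNA moved with AI-Exo. The 7 neutrophil markers all had UMIs in macrophages of every library and summed to 5782 CPM in AI-Exo, 1267 in PD-L1 and 1154 in PBS, led by S100a9 at 2930, 670 and 519 CPM. Leaving out macrophages with at least 10 S100a8 and S100a9 UMIs per 10000, which were 50 of 197, 15 of 133 and 27 of 286, left 6 genes lower in AI-Exo over PBS and 5 in PD-L1 over PBS. The 9 macrophage markers themselves summed to 10589 CPM in AI-Exo, 18819 in PD-L1 and 13808 in PBS, and the 6 classical monocyte markers to 981, 829 and 1703 CPM. The 5 immature T-lineage markers summed to 0 CPM in AI-Exo macrophages, 91.6 in PD-L1 and 95.5 in PBS. The immature T-lineage gate held 0, 96 and 86 cells. The part of these marker differences in the levels of the 7 genes was not tested. Free RNA could account for at most 1.32% of macrophage UMIs in AI-Exo, 0.492% in PD-L1 and 0.591% in PBS.

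Alveolar macrophages gave another pattern. Mrc1 was 748 CPM (731 to 765) in AI-Exo, 851 (828 to 874) in PD-L1 and 968 (941 to 995) in PBS, so the ratios to PBS were 0.772 and 0.879 and none reached 1.5-fold. It was found in 98.8%, 97.9% and 98.8% of cells. Marco was 517 CPM (503 to 531) in AI-Exo, 434 (418 to 451) in PD-L1 and 314 (299 to 330) in PBS. Its ratio was 1.65 (1.56 to 1.74) in AI-Exo over PBS and 1.38 (1.30 to 1.47) in PD-L1 over PBS. The 7 neutrophil markers summed to 1394 CPM in AI-Exo, 466 in PD-L1 and 488 in PBS in this gate, and the 6 markers of dividing cells to 916, 489 and 525 CPM. Without dividing cells the Marco log2 ratio was 0.68 in AI-Exo over PBS, against 0.70 with them. Without cells of at least 10 S100a8 and S100a9 UMIs per 10000 it was 0.75. Marco was not higher over PBS in every alveolar cluster: in one with Slc7a2 and Car4 among its leading genes, and 119, 61 and 47 cells, it was 316, 178 and 308 CPM. The share of cells with a Marco UMI was 68.8%, 60.2% and 55.7%, and 30.5%, 23.2% and 20% after thinning to 1000 UMIs. Of the 7 genes, 1 was higher (Marco) and 1 lower (Pf4) in AI-Exo over PBS, where 1.10% of 18285 genes were higher and 0.481% lower. In PD-L1 over PBS 0 were higher and 1 was lower (Pf4), where 0.439% and 0.211% of genes were. In AI-Exo over PD-L1 1 was higher, Pf4, where 0.719% of genes were, and 0 were lower, where 0.260% were.

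Msr1 was 29.4, 28.7 and 27.9 CPM in alveolar macrophages, with overlapping intervals. Pf4 was 20.9 CPM (18.2 to 23.9) in AI-Exo, 3.42 (2.12 to 5.23) in PD-L1 and 57.5 (51.1 to 64.5) in PBS, but a UMI was seen in 8.14%, 3.54% and 9.74% of cells, and all Pf4 UMIs lay in the richest 10% of cells. Leaving out the cells with the highest doublet scores, 103, 48 and 45 of the gate, ended both lower calls and turned the log2 ratio of AI-Exo over PBS to 0.50. No statement on Pf4 in alveolar macrophages is therefore drawn.

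**Figure D5:**
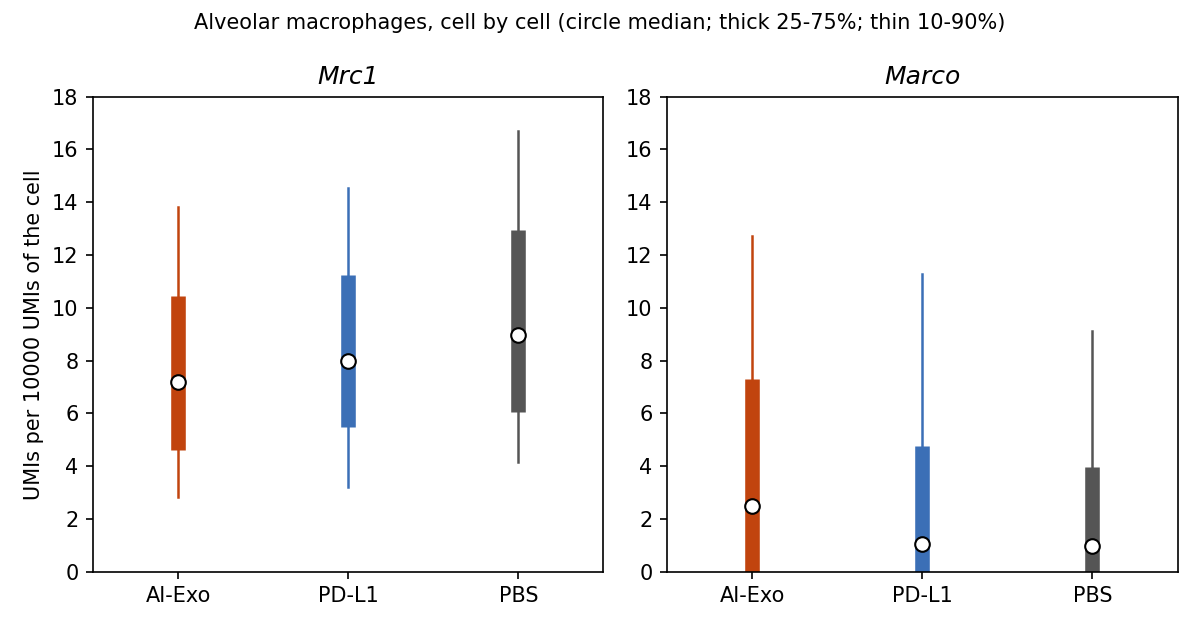
UMIs of Mrc1 and Marco per 10000 UMIs of a cell (y axis) in alveolar macrophages of the AI-Exo, PD-L1 and PBS libraries, as median (circle), 25% to 75% range (thick) and 10% to 90% range (thin). The Mrc1 medians are 7.18, 7.99 and 8.96 and the Marco medians 2.49, 1.04 and 0.99.

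In classical monocytes, 303 cells in AI-Exo, 465 in PD-L1 and 1046 in PBS, Mrc1 was 7.02, 26.1 and 24.6 CPM and Pf4 was 17.1, 69.2 and 41.4 CPM. Of the 7 genes, 2 were lower in AI-Exo over PBS, Mrc1 and Pf4, where 1.80% of genes were, and 0 higher, where 2.64% were. In PD-L1 over PBS 1 was higher, Pf4, where 4.06% of genes were, and 0 lower, where 3.05% were. In AI-Exo over PD-L1 Mrc1 and Pf4 were lower, 2 of 7, where 2.54% of genes were, and 0 were higher, where 3.05% were. The share of monocytes with a Pf4 UMI went against the order by CPM, at 3.01% in PD-L1 and 6.31% in PBS. These shares were not thinned, and median depth was 5328 UMIs in PD-L1 and 8359 in PBS. In both libraries the Pf4 level came from few cells. Cd163, Marco and Folr2 were at or below 3.68 CPM.

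Between the treated libraries, macrophages of AI-Exo over PD-L1 had 2 genes lower, Stab1 and Folr2, where 2.36% of genes were, and 1 higher, Marco, where 1.98% were. Mrc1 fell short of the size at a ratio of 0.680 (0.608 to 0.760), and Pf4 at 0.764 (0.718 to 0.813).

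The genes most like each member were taken over 36 points, each a gate of at least 50 cells in one library, among 7066 genes of at least 50 CPM in one of them, by Pearson's r of log2(CPM + 10). Points share libraries and gates, so r is a description. Mrc1 was most like Dab2 (0.94), an adaptor of endocytosis, Marco most like the coagulation factor gene F7 (0.95) and Msr1 most like Trem2 (0.95), a lipid receptor that is also one of the gate's markers. Folr2 was most like Cbr2 (0.97), and Cbr2 also stood first for Cd163 (0.91). Gas6 was among the 3 genes most like Stab1 (0.91). Pf4 was most like C3ar1 (0.88), the receptor of complement fragment C3a. Among the 7 genes, Stab1 and Folr2 (0.86) and Folr2 and Pf4 (0.86) were closest, and Cd163 and Marco (0.05) farthest apart.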

How the data were processed

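The authors deposited raw UMI counts per gene and barcode, 1 unfiltered matrix for each library of a 10x 3′ kit. Cell Ranger is version 7.1.0 per the file headers and 3.0.2 per the submitters' processing notes, and no header or label used here names the genome build or annotation. Cells, gates and CPM were computed from those counts as the report states. The 7 genes and all lists were chosen with earlier results of these data known, and the gate and Arg1 limits were set after the data were seen. With 1 library a group there is no test: calls use 1.5 times on CPM + 10, and intervals are exact (Poisson, Clopper-Pearson, and conditional for ratios) and cover counting error only. All 7 genes are named. Of each list, the 2 highest and 2 lowest log2 ratios per comparison could be named, among genes of at least 20 CPM, and for each of the 7 genes the 3 most alike. Some marker genes and Arg1 are named where they bear on a value. The ratio and call steps were tested on simulated data. Doublets were kept. As an alternative, the highest simulated-doublet scores of each library were left out. Clusters used leidenalg 0.10.2, and TMM factors came from edgeR 4.0.16 in R 4.3.3. Median depth was 4425 UMIs in AI-Exo, 3948 in PD-L1 and 4380 in PBS. Some genes that these rules would name are not reported here.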

Additional observations from a re-analysis of the deposited data

Results flagged for a closer look

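Directions over PBS were compared only among macrophages, alveolar macrophages and classical monocytes. Marco had opposite directions in PD-L1 over PBS, with a log2 ratio of 0.46 in alveolar macrophages and -1.67 in macrophages. The difference between the gates was not tested, and the macrophage value rests on 16 UMIs in PD-L1 and 225 in PBS. Pf4 also had opposite directions in PD-L1 over PBS, with 0.62 in classical monocytes and -1.77 in macrophages. In alveolar macrophages it was -2.33. The alveolar value was -0.43 without high doublet scores and no longer past the 1.5-fold size, so no direction is drawn from it. The difference between monocytes and macrophages was not tested either, and the monocyte value rests on 3.01% of PD-L1 monocytes. Gates outside this comparison also differed in direction between AI-Exo and PBS. Pf4 was 144.8 against 4.82 CPM in mature migratory dendritic cells but 29.3 against 68.2 CPM in type 1 dendritic cells. These rest on 130 against 4 UMIs and on 77 against 169 UMIs. Mrc1 was 58.6 against 3.88 CPM in nonclassical monocytes but 5.04 against 26.9 CPM in neutrophils, from 61 against 4 and 22 against 72 UMIs. These differences were not tested.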

How the results depend on the processing

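Over 12 other settings and 3 more chosen after seeing the data, 4 to 6 of the 7 genes were lower in macrophages in PD-L1 over PBS and 5 to 6 in AI-Exo over PBS, and 0 were higher. The log2 ratio of AI-Exo over PBS ran from -2.22 to -1.78 for Mrc1 and from -2.32 to -1.61 for Pf4. Alveolar counts depended on single genes. Leaving out high doublet scores gave 0 lower and 1 higher (Marco) in PD-L1 over PBS and 0 lower in AI-Exo over PBS, and turned Pf4 in AI-Exo over PBS to 0.50. A pseudocount of 1 CPM gave 2 lower in each comparison, leaving out dividing cells gave 0 lower in AI-Exo over PBS, and a size of 2 times gave 0 higher there. The cause was not tested. Values of single genes were read under the 12 settings other than the 20 CPM limit and the size of 2 times. Of these, 221 stayed within the counting interval of the main value, 58 left it and 1 reversed. Under the 3 added later, 37 stayed within it and 19 left it. That interval is wide for genes with few UMIs, so staying within it does not show a stable value. No paired analysis was possible because each group has 1 library, and no library could be left out. Cd163 and Marco in macrophages are limited by low counts.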
